A study of Mus musculus with 68 samples.

Results

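The genes described are 6 that are active in the embryo, several of them largely silent in adult tissues, and often high in tumours: the RNA-binding proteins Igf2bp1, Igf2bp2, Igf2bp3 and Lin28b, and the chromatin proteins Hmga1 and Hmga2. They were chosen by symbol with earlier results of these data known, since Igf2bp3 had ranked low in 3-month heterozygous cultures, and they are 6 of 27179 gene identifiers in the count table. RNA was sequenced from cultures of mesenchymal stromal cells (MSCs, adherent cells that can form bone, cartilage and fat) grown from mouse long bones. Het cultures came from mice with 1 floxed allele of Ezh2, the methyltransferase of Polycomb repressive complex 2 (Ezh2fl/+:Prxx-1-Cre as the labels spell it), and WT cultures from mice with no floxed allele (Ezh2+/+:Prrx-1-Cre). All mice carried Cre driven by Prrx1, a gene of the limb mesenchyme, so the WT cultures carry Cre as well. There were 6 Het 12M cultures (mice aged 12 months), 4 WT 12M cultures, 3 Het 3M cultures (3 months) and 4 WT 3M cultures, each sequenced as 4 technical replicates that were summed. By label, Het 12M S17 was male and the other Het 12M cultures were female. Het 3M S8 and S10 were labelled male and S14 female. WT 12M S2 and S13 were labelled male and S6 and S7 female. WT 3M S5 and S12 were labelled male and S3 and S4 female, so labelled sex was not balanced between groups. The series text gives 3 samples per group, and the labels do not say whether a culture came from 1 mouse. The p-values here therefore set group differences against the spread between cultures, which may be partly technical and may not be that between mice.

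These genes form a described circuit around let-7, a microRNA family that rises as tissues mature. LIN28B blocks the processing of let-7 precursors, and let-7 in turn represses the mRNAs of Lin28b, Hmga2 and the Igf2bp genes. The IGF2BP proteins bind mRNAs, among them those of Igf2, Myc and H19, and affect their stability, location or translation. The HMGA proteins bind AT-rich DNA and change chromatin structure, and HMGA2 is known to promote Igf2bp2 transcription and the self-renewal of neural stem cells in young mice.

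The let-7 sequences, and the matches to them in the 6 genes, are described before any level is considered. RefSeq (GRCm38) lists 9 mature let-7 and miR-98 sequences from 11 loci, all 22 nucleotides long and all with 1 seed, the bases at positions 2 to 8 that pair with targets. The members shown differ only behind the seed, which is in capitals:
mmu-let-7a-5p: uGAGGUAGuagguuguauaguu
mmu-let-7g-5p: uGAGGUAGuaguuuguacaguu
mmu-miR-98-5p: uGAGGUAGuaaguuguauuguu

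The sequence that pairs with this seed, CTACCTC, was searched on the transcript strand of the longest annotated 3′ UTR of each gene (GENCODE M21, GRCm38). All 6 genes hold it, which was part of why such genes are grouped in the literature and is no result of these cultures. Igf2bp1, Hmga2 and Lin28b hold 4 matches each, in 3′ UTRs of 6.34, 3.01 and 4.45 kb. Igf2bp2, Igf2bp3 and Hmga1 hold 1 each, in 1.78, 2.12 and 1.18 kb. Of 21004 protein-coding genes with a 3′ UTR, 9% hold at least 1 match. The share among 3′ UTRs of 0.8 to 1.25 times the gene's own length was 34.4% for Igf2bp1, 12.1% for Igf2bp2, 13.3% for Igf2bp3, 8.2% for Hmga1, 16.1% for Hmga2 and 24.4% for Lin28b. The first match of each gene is shown with its neighbouring bases, the match in capitals; a match is a string of letters and not a measured site of binding:
Igf2bp1: gtgcgaagtaaaCTACCTCaaggtgtg
Igf2bp2: cacaaataaaagCTACCTCaggtgttt
Igf2bp3: atttttactcaaCTACCTCaggtattc
Hmga1: tctgttcacaaaCTACCTCtggacggt
Hmga2: gacattcaatttCTACCTCagcatcag
Lin28b: cgggcgggaagtCTACCTCatgcaagc

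These windows lie at chr11:95961771-95961797 for Igf2bp1, chr16:22059466-22059492 for Igf2bp2, chr6:49086780-49086806 for Igf2bp3, chr17:27563280-27563306 for Hmga1, chr10:120364217-120364243 for Hmga2 and chr10:45381015-45381041 for Lin28b, all in 3′ UTR exons. Hmga1 is on the plus strand and the other 5 genes are on the minus strand. In Igf2bp1, Igf2bp2, Igf2bp3, Hmga2 and Lin28b the match shown is followed by an a, which completes the longer form of a let-7 match, and in Hmga1 it is not.

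Depth was 13687876 to 28597221 counts per culture. Prrx1, a marker of limb mesenchyme, was detected in every culture at 171 to 896 counts per 1e6 reads of the library (CPM). Ezh2 itself averaged 17.8 ± 5.5 CPM in Het 12M (SD, n = 6) and 19.8 ± 12.3 CPM in WT 12M (n = 4), and 11.1 ± 2.3 CPM in Het 3M (n = 3) and 12.6 ± 2.3 CPM in WT 3M (n = 4), and the groups overlapped at both ages. These counts cover the whole gene and do not isolate the floxed part. In 4 of 4 WT 12M libraries, and in 0 of the other 13, Y-linked transcripts contradicted the labelled sex, so WT 12M below means the libraries labelled WT 12M. In 3 cultures, Het 12M S9 and S15 and WT 12M S6, marker genes stood apart. Het 12M S9 had 43100 CPM summed over 14 macrophage markers, against 36.3 to 3117 CPM in the other 16 cultures. WT 12M S6 had 231 CPM of the neural crest factor Sox10, with WT 3M S4 next at 3.89 CPM. Summed over 12 Schwann and neural crest markers, WT 12M S6 had 1317 CPM and Het 12M S9 had 1200 CPM, against 31.0 to 121 CPM elsewhere. Sox10 itself was 1.66 CPM in Het 12M S9. Het 12M S15 had the lowest Prrx1 and the lowest sum of 16 stromal markers, 9281 CPM, against 14670 to 40480 CPM in the other cultures. Its Col1a1 was also the lowest, 1504 CPM, with WT 3M S12 next at 4134 CPM. Its Pdgfra, at 186 CPM, was not the lowest, since WT 12M S6 had 96.0 CPM. These 3 cultures were set apart with no numerical cutoff, and other cultures led other marker lists. WT 3M S5 had the highest sum of 10 endothelial markers, 88.7 CPM, with Het 3M S8 next at 51.7 CPM. WT 12M S7 had the highest sum of 10 chondrocyte markers, 22230 CPM. Since these are bulk cultures, fewer cells of a type and less RNA per cell cannot be told apart.

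Of the 6 genes, 5 were detected and passed the filter on low counts. Lin28b, whose protein blocks let-7 processing, had 0 counts in all 17 cultures. A count of 0 allows up to 3 counts, which is 0.105 to 0.219 CPM in a single culture and 0.00864 CPM over the 347421515 counts of the series, for counting error only. The paralog Lin28a also had 0 counts in all 17, and Trim71, a let-7 target that acts beside LIN28 in early embryos, had 8 counts in all. At this depth neither LIN28 mRNA was detectable in Het or WT cultures of either age, and no comparison of Lin28b could be made.

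Per kilobase of exon, the scale on which genes can be compared, Hmga1 had the highest mean level over the 17 cultures, 7.29 CPM per kb, followed by Hmga2 at 4.80 and Igf2bp2 at 3.82 CPM per kb. Igf2bp3 followed at 0.269 and Igf2bp1 at 0.0656 CPM per kb. The SDs over cultures were 6.13, 3.11, 1.04, 0.181 and 0.0662 CPM per kb in the same order of genes, so the first 3 overlap one another, Igf2bp2 and Igf2bp3 do not, and Igf2bp3 and Igf2bp1 do. The order of the first 3 differed between groups: Hmga1 had the highest mean in Het 12M and WT 12M, Igf2bp2 in Het 3M (4.16 CPM per kb) and Hmga2 in WT 3M (6.52 CPM per kb). In Het 12M, Hmga1 lay above Hmga2 per kb only in S9 and S15, at 10.05 and 3.46 times its level. In Het 12M S1, S11, S16 and S17 it was 0.300 to 0.859 times that of Hmga2. By mean CPM, 61% of the 14897 genes tested lay below Hmga2, 57.3% below Igf2bp2, 43.5% below Hmga1, 17% below Igf2bp3 and 6.8% below Igf2bp1.

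**Figure D1:**
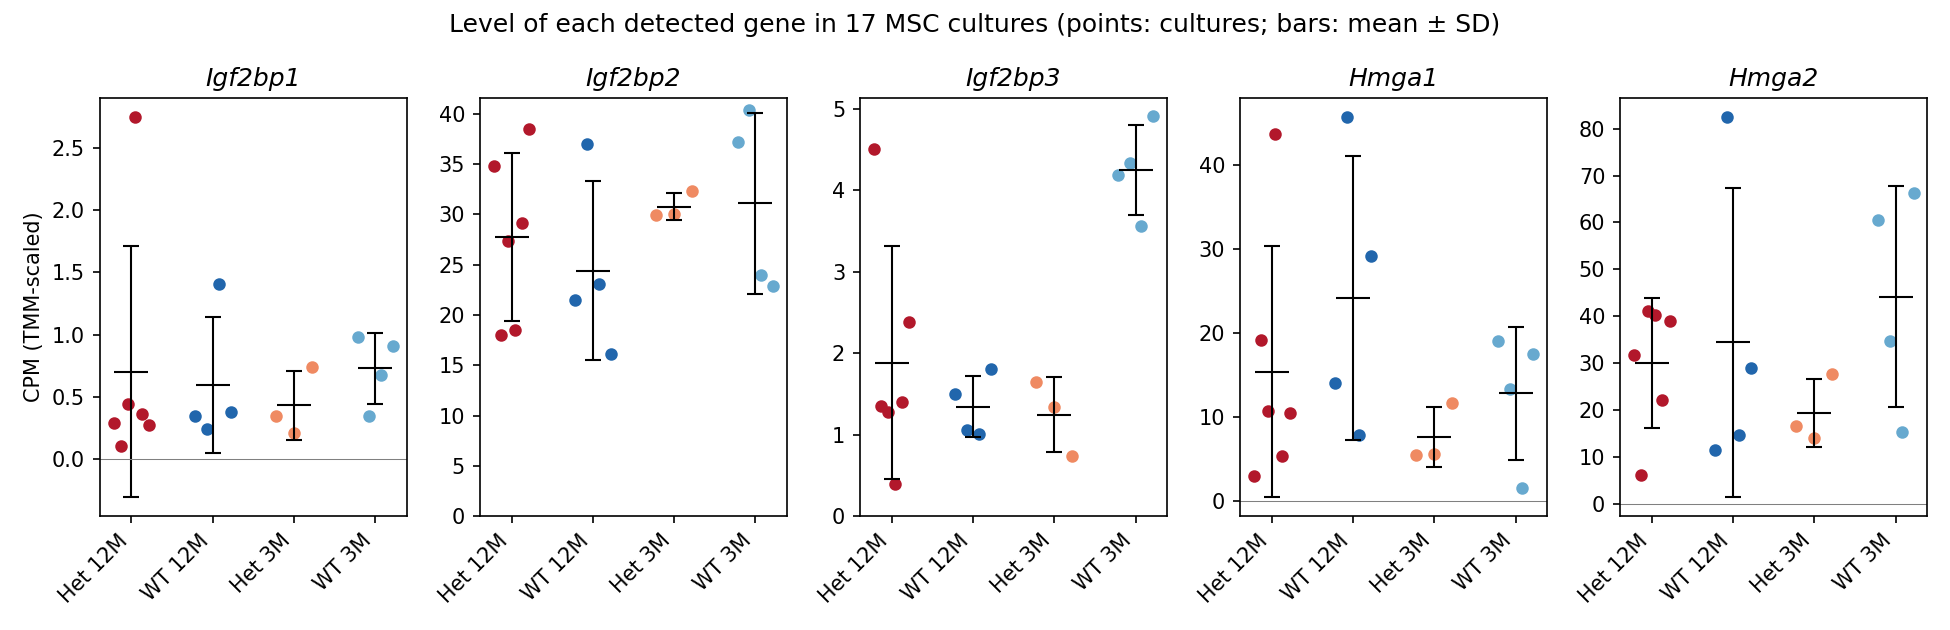
CPM scaled by trimmed mean of M values (vertical axes, linear, a separate range for each gene) in Het 12M, WT 12M, Het 3M and WT 3M cultures, with 1 point per culture and bars for the mean ± SD. The 4 WT 3M points of Igf2bp3 lie between 3.56 and 4.90 CPM, and the only other point in that range is 1 Het 12M culture at 4.50 CPM.

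Igf2bp3 is a mainly fetal RNA-binding protein that is re-expressed in many cancers. In Het 3M cultures it stood at 1.64, 1.34 and 0.739 CPM, against 4.18, 4.34, 3.56 and 4.90 CPM in WT 3M cultures. All 3 Het 3M cultures lay below all 4 WT 3M cultures. The sum of 8 osteoblast markers also separated these groups, at 2005, 2024 and 6840 CPM in Het 3M, against 944 to 1801 CPM in WT 3M, with 0 of the 8 at 0 in any of the 7 cultures; its part in the Igf2bp3 difference was not tested. The means were 1.24 ± 0.46 CPM in Het 3M and 4.25 ± 0.55 CPM in WT 3M, and the fitted log2 fold change was -1.77. This contrast chose the gene, so these values are a description with no test, and of all 14897 genes tested 3.57% also lay lower in every Het 3M than in every WT 3M culture. The Het 3M counts were 13 to 33 reads and the WT 3M counts 74 to 124 reads. Het 3M S8 and S10 were the most alike pair of the 136 pairs of cultures, and whether they share a mouse was not tested; leaving out any 1 culture gave log2 fold changes of -2.03 to -1.51.

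At 12 months the Het and WT ranges overlapped. Igf2bp3 ranged from 0.393 to 4.50 CPM in Het 12M, with a median of 1.37 CPM, against 1.49, 1.06, 1.01 and 1.81 CPM in WT 12M. The WT 12M values lay inside the Het 12M range, at whose ends stood Het 12M S1 and Het 12M S15. The log2 fold change of Het 12M over WT 12M was 0.48 ± 0.49 (SE; 95% confidence interval -0.56 to 1.53), with an edgeR adjusted p of 0.804. Without Het 12M S1 it was 0.019. Of the 14897 genes tested, 0% passed the threshold of 0.05 in this comparison and 8.36% had an unadjusted p under 0.05; 0 of the 5 detected members did either. DESeq2 called 106 genes (0.712%) and limma voom with quality weights 171 (1.15%), again with 0 of the 5 among them. In this comparison 0 of the 5 had groups that did not overlap, against 1.32% of all genes tested.

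Across age, the WT 12M values of Igf2bp3 all lay below the WT 3M values, with a log2 fold change of -1.66. This comparison uses the same WT 3M libraries that set Igf2bp3 apart at 3 months, so it is given without a test, and 4.07% of all genes tested were likewise lower in every WT 12M than in every WT 3M culture. Of the 5 detected members it was the 1 with separate groups. In Het cultures the ranges overlapped, at 0.393 to 4.50 CPM in Het 12M and 0.739 to 1.64 CPM in Het 3M, with a log2 fold change of 0.59; 0 of the 5 members had separate groups there, against 1.91% of all genes. For the other 4 members, given below, 0 passed edgeR's adjusted threshold in either age comparison, as did 0% of all genes, and 0 had an unadjusted p under 0.05, against 8.22% of all genes in WT and 3.28% in Het. The fitted interaction, the Het over WT difference at 12 months minus that at 3 months, was 2.25 on the log2 scale and is also a description. WT 3M was thus the group with the high level of Igf2bp3, and Het 3M, WT 12M and 5 of 6 Het 12M cultures lay below it.

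Igf2bp2, the family member that remains expressed in adult tissues, made up nearly all of the family's RNA. It accounted for 88.3 to 94.97% of the summed CPM per kb of the 3 Igf2bp genes in Het 12M cultures and 89.3 to 97.0% in WT 12M cultures, and for 94.5 to 96.3% in Het 3M and 81.6 to 90.6% in WT 3M. The share of Igf2bp3 was 1.70 to 10.4% in Het 12M cultures, 2.51 to 9.08% in WT 12M cultures, 2.00 to 4.70% in Het 3M and 8.83 to 15.9% in WT 3M. The Het 3M shares of Igf2bp3 lay below all WT 3M shares, which restates the choice of that gene.

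**Figure D2:**
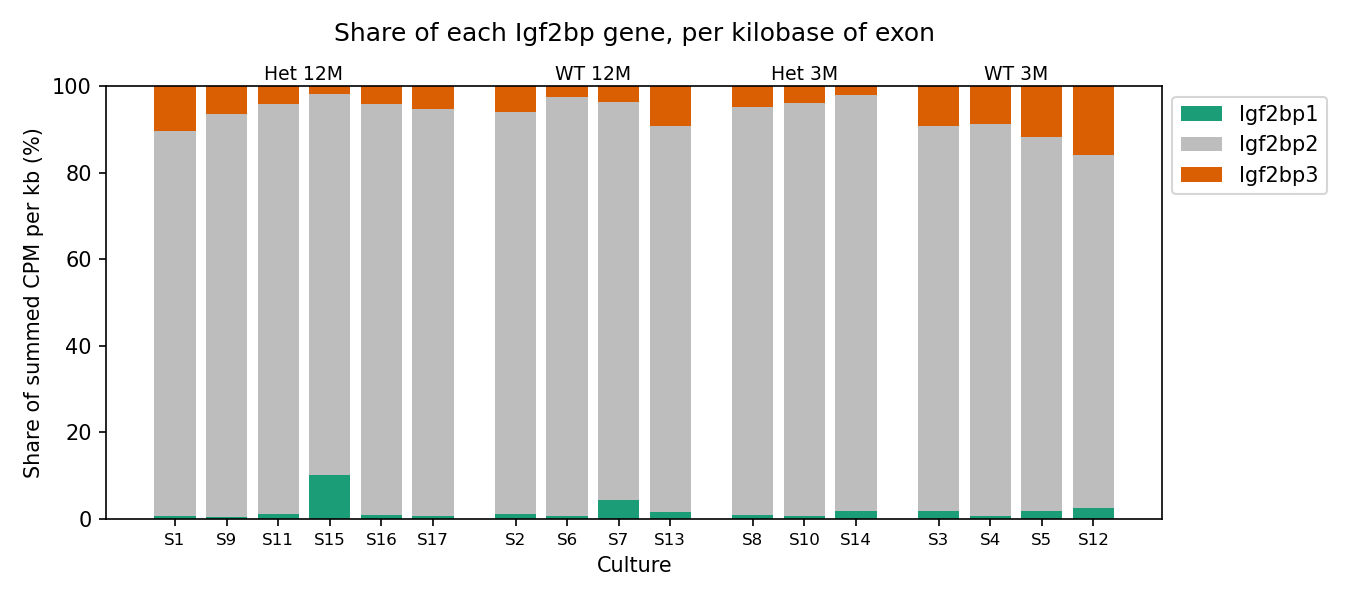
Share of Igf2bp1, Igf2bp2 and Igf2bp3 in their summed CPM per kb of exon (vertical axis, percent) in each culture (horizontal axis), grouped as Het 12M, WT 12M, Het 3M and WT 3M. Igf2bp2 takes 81.6% or more of every bar, Igf2bp1 reaches 10.02% in Het 12M S15, and Igf2bp3 reaches 15.9% in WT 3M S12.

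In CPM, Igf2bp2 ran from 18.1 to 38.5 in Het 12M (median 28.3), against 21.5, 37.0, 23.1 and 16.1 in WT 12M. It stood at 30.0, 30.0 and 32.3 CPM in Het 3M, against 37.3, 40.3, 23.9 and 22.9 CPM in WT 3M. Groups overlapped in all 4 comparisons, and Igf2bp2 varied least of the 5 detected genes, with an SD of 27.1% of its mean over 17 cultures. The log2 fold change was 0.18 ± 0.27 for Het 12M over WT 12M (95% interval -0.39 to 0.75, edgeR adjusted p = 0.870), and it was 0.017 without WT 12M S13 and 0.45 without WT 12M S6. For WT 12M over WT 3M it was -0.35 ± 0.29 (-0.97 to 0.27, adjusted p = 0.721) and for Het 12M over Het 3M -0.15 ± 0.29 (-0.77 to 0.47, adjusted p = 0.958). For Het 3M over WT 3M it was -0.016, with no test. The age comparisons share 3M libraries with the contrast behind the choice of genes. A p above the threshold does not show equal levels, and differences within these intervals could not be detected.

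Igf2bp1, which stabilises mRNAs in embryonic and tumour cells, was near the limit of detection, with 2 to 42 reads per culture. It stood at 0.104 to 2.75 CPM in Het 12M (median 0.326), against 0.344, 0.240, 1.41 and 0.380 CPM in WT 12M. It stood at 0.348, 0.206 and 0.739 CPM in Het 3M, against 0.984, 0.345, 0.673 and 0.909 CPM in WT 3M. Het 12M S15 and WT 12M S7 were the highest cultures of their groups, and all groups overlapped. The log2 fold change of Het 12M over WT 12M was 0.21 ± 0.79 (95% interval -1.46 to 1.89, edgeR adjusted p = 0.958), and without Het 12M S15 it was -1.02. For Het 3M over WT 3M it was -0.76, with no test, and for WT 12M over WT 3M -0.29 ± 0.86 (edgeR adjusted p = 0.918). The value for WT 12M over WT 3M was -1.17 without WT 12M S7 and -0.025 without WT 12M S6. For Het 12M over Het 3M it was 0.68 ± 0.90 (adjusted p = 0.947), and without Het 12M S15 it was -0.55.

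Hmga2, an architectural chromatin protein of undifferentiated mesenchyme and a classic let-7 target, had the highest mean CPM of the 6 over the 17 cultures, 32.5 CPM, although in Het 3M it averaged 19.4 CPM and Igf2bp2 30.8 CPM. It ran from 6.07 to 41.1 CPM in Het 12M (median 35.3), against 11.4, 82.5, 14.6 and 29.0 CPM in WT 12M. Both extremes of the series lay here. The lowest value was that of Het 12M S9, the culture with the highest macrophage marker sum. The highest was that of WT 12M S6, the culture with the highest Sox10. The part of other cell types in these values was not tested. The log2 fold change of Het 12M over WT 12M was -0.20 ± 0.57 (95% interval -1.39 to 1.00, edgeR adjusted p = 0.944). Without WT 12M S6 it was 0.72, without Het 12M S9 0.017, and without both these cultures and Het 12M S15 0.88 (adjusted p = 0.464), so its direction rests on single cultures.

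At 3 months Hmga2 stood at 16.5, 14.1 and 27.7 CPM in Het 3M, against 60.4, 34.7, 15.3 and 66.2 CPM in WT 3M. WT 3M S5 lay within the Het 3M range and the other 3 WT 3M cultures above it. WT 3M S5 was also the culture with the highest endothelial marker sum, and the part of other cell types here was not tested. The log2 fold change of Het 3M over WT 3M was -1.19, the largest in size after that of Igf2bp3, and has no test. For WT 12M over WT 3M it was -0.36 ± 0.62 (95% interval -1.68 to 0.96, edgeR adjusted p = 0.856), running on leaving out 1 culture from -1.28 (WT 12M S6 left out) to -0.072 (WT 12M S2 left out), and for Het 12M over Het 3M 0.63 ± 0.64 (-0.73 to 1.99, adjusted p = 0.946). With limma voom and sample quality weights, which lower the weight of cultures far from their group, 2 of the 4 members tested, Hmga2 and Igf2bp2, passed the threshold in WT 12M over WT 3M. Hmga2 then had a log2 fold change of -1.68 (voom adjusted p = 0.0174) and Igf2bp2 one of -0.67 (voom adjusted p = 0.0316). That method called 1508 of all genes tested in this comparison, or 10.1%, where edgeR called 0.

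Hmga1, the second HMGA gene and one commonly high in dividing cells, was the most variable of the better-expressed members. It ran from 2.98 to 43.8 CPM in Het 12M (median 10.6), against 14.1, 45.8, 7.87 and 29.2 CPM in WT 12M. It stood at 5.42, 5.62 and 11.7 CPM in Het 3M, against 19.02, 13.3, 1.49 and 17.5 CPM in WT 3M. Groups overlapped in every comparison. The log2 fold change of Het 12M over WT 12M was -0.65 ± 0.70 (95% interval -2.13 to 0.83, edgeR adjusted p = 0.816). Without WT 12M S6 it was -0.15 and without Het 12M S15 -1.33. It was 0.92 ± 0.78 for WT 12M over WT 3M (-0.74 to 2.57, edgeR adjusted p = 0.724; 0.39 without WT 12M S6) and 1.02 ± 0.82 for Het 12M over Het 3M (-0.70 to 2.75, adjusted p = 0.946). For Het 3M over WT 3M it was -0.76, with no test. Without the 3 cultures whose markers stood apart, the value for Het 12M over Het 3M was -0.034.

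Reads of Hmga1 are uncertain because Hmga1b, a near-identical copy on chromosome 11, can share them. Hmga1b had 0.132 to 0.829 times the Hmga1 count, depending on the culture. The handling of reads that match both is not given in the sources used here. With both counts summed, the log2 fold change of Het 12M over WT 12M was -0.77 (edgeR adjusted p = 0.761).

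**Figure D3:**
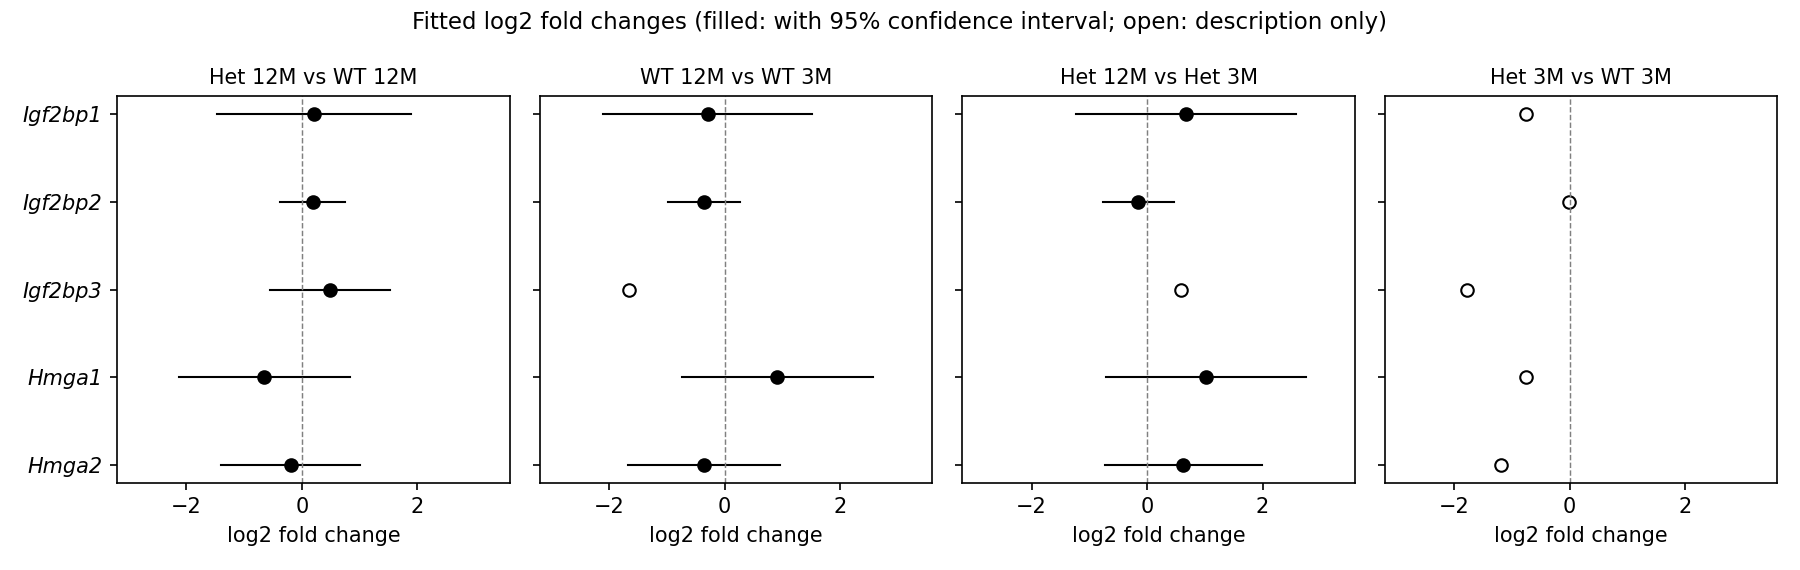
Fitted log2 fold changes (horizontal axes) of the 5 detected genes in Het 12M over WT 12M, WT 12M over WT 3M, Het 12M over Het 3M and Het 3M over WT 3M. Filled points carry a 95% confidence interval, all of which include 0, and open points are values that overlap with the choice of the genes and have no test, such as -1.77 and -1.66 for Igf2bp3.

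Hmga1 and Hmga2 did not keep 1 ratio across cultures. Per kilobase, Hmga1 over Hmga2 was 0.300 to 10.05 in Het 12M cultures, 1.71 to 3.92 in WT 12M cultures, 1.05 to 1.35 in Het 3M and 0.310 to 1.22 in WT 3M. The highest ratio was that of Het 12M S9. Summed over 14 proliferation markers, WT 12M S6 had 908 CPM, WT 12M S13 had 665, Het 12M S15 had 546 and Het 12M S9 had 485 CPM, against 143 to 361 CPM in the other 13 cultures. These 4 cultures also had the 4 highest Hmga1 levels, 45.8, 29.2, 43.8 and 19.1 CPM, with WT 3M S3 next at 19.02 CPM. The fourth place depends on the scaling, since by library total Het 12M S9 had 17.4 CPM, against 19.45 CPM in WT 3M S3 and 18.25 CPM in WT 3M S12. The Hmga2 levels of the 4 cultures covered the whole range of the series. Single proliferation markers did not all follow the sum. Mki67 stood at 4.32 CPM in Het 12M S15. It stood at 93.3 CPM in WT 12M S6, 95.6 in WT 12M S13 and 78.0 in Het 12M S9. Top2a in Het 12M S15 was 71.2 CPM, below Het 12M S1 at 92.2 and Het 12M S16 at 79.8 CPM. The part of proliferation in the Hmga1 differences was not tested.

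**Figure D4:**
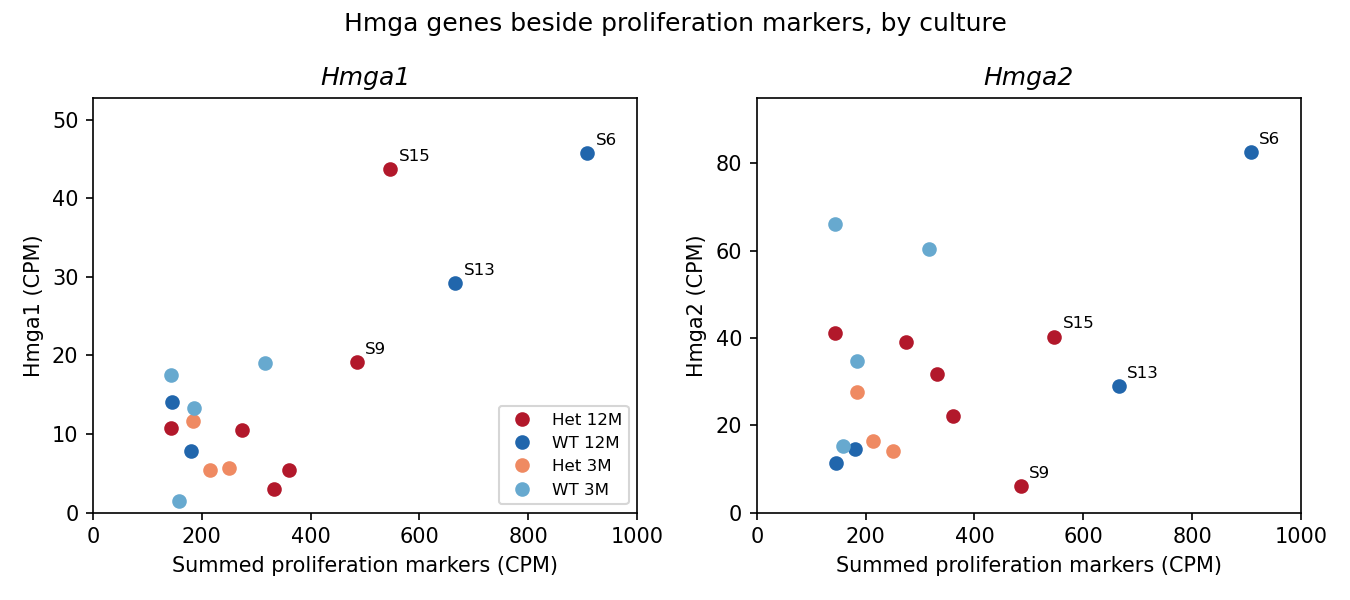
Hmga1 (left) and Hmga2 (right) in CPM (vertical axes) against the summed CPM of 14 proliferation markers (horizontal axes), with 1 point per culture coloured as Het 12M, WT 12M, Het 3M or WT 3M. The 4 labelled cultures have the highest marker sums, 485 to 908 CPM, and, on this scaling, the 4 highest Hmga1 levels (by library total Het 12M S9 lies below WT 3M S3 and S12), but Hmga2 levels from 6.07 to 82.5 CPM.

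Over the 17 cultures, the Pearson r of log2 CPM ran from -0.38 to 0.44 over the 10 pairs of detected members. The highest was that of Igf2bp2 and Hmga2 at 0.44 (Spearman rho 0.38; permutation p = 0.0790 and 0.132), and 0.36 without the 2 cultures farthest from the median. Hmga1 and Hmga2 followed at 0.41 (rho 0.40; permutation p = 0.1001 and 0.1095), and 0.22 without the 2 farthest. After Benjamini-Hochberg adjustment over the 6 pairs without Igf2bp3 the smallest permutation p was 0.300 for r and 0.397 for rho, so 0 of 6 passed, which does not show that these genes vary independently. The 4 pairs with Igf2bp3 contain the values that chose it and have no test; the lowest r was -0.38, with Hmga1. Without the 3 cultures whose markers stood apart, r was 0.53 for Igf2bp3 and Hmga2, 0.48 for Hmga1 and Hmga2 and -0.069 for Igf2bp3 and Hmga1.

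Other genes followed single members more closely. The 3 most like Igf2bp3, by Pearson r of log2 CPM over 17 cultures, were Gucy1a2, a subunit of soluble guanylate cyclase (r = 0.87), Htr2a, a serotonin receptor (0.86), and Hmgcll1, an enzyme related to HMG-CoA lyase (0.85). Gucy1a2 stood at 0 to 7.45 CPM in Het 12M cultures, 1.06 to 2.80 in WT 12M cultures, 1.91 to 2.74 in Het 3M and 8.57 to 15.6 CPM in WT 3M. Since r with Igf2bp3 contains the values that chose Igf2bp3, these ranges restate that choice. Of all genes tested, 3.57% lay lower in every Het 3M than in every WT 3M culture. The share was 4.07% for WT 12M below WT 3M. For Hmga1 the 3 were Igsf8 (0.94), Lrwd1, which binds the origin recognition complex (0.93), and the mitochondrial protease gene Htra2 (0.93). For Hmga2 they were Fhdc1 (0.91), Map3k6 (0.88) and Map6 (0.87), for Igf2bp2 Podnl1 (0.81), Map4 (0.77) and Gzmg (0.76), and for Igf2bp1 Trabd2b (0.85), Hip1r (0.84) and Car5b (0.84). These are the highest of all correlations with the genes tested, within shared libraries, and are descriptions. Without the 3 cultures whose markers stood apart, 1 of the 3 genes for Hmga1 and 0 for the other 4 members stayed among the first 3, while all 3 stayed among the first 100 for every member but Igf2bp2, for which 2 did.

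Genes of the same circuit outside the 6 were followed as 6 lists, of which 96 genes were tested. With edgeR, 0 of the 96 passed the adjusted threshold in any comparison, as did 0% of all genes. An unadjusted p under 0.05 was found for 4 of the 96 in Het 12M over WT 12M (8.36% of all genes), 9 in WT 12M over WT 3M (8.22%), 4 in Het 12M over Het 3M (3.28%) and 1 in Het 3M over WT 3M (1.6%). DESeq2 called 0 of the 96. Voom with quality weights called 11 of the 96 in WT 12M over WT 3M (10.1% of all genes), 6 in Het 3M over WT 3M (8.67%), 6 in the interaction (6.3%) and 0 in the other comparisons. Among 19 tested genes of LIN28 and let-7 processing, 7 were fitted higher and 12 lower in Het 12M than in WT 12M, with a median log2 fold change of -0.10 against 0.05 over all genes tested. The smallest p were those of Tut1, a terminal uridylyltransferase (-0.42 ± 0.19, edgeR adjusted p = 0.589), and the helicase gene Ddx5 (0.32 ± 0.21, adjusted p = 0.695). In Het 3M over WT 3M, 8 were higher and 11 lower, with a median of -0.015, and Ago2 (-0.67 ± 0.39) and Dgcr8 (-0.31 ± 0.31) led, both with an edgeR adjusted p of 1.00.

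The let-7 genes themselves were scarcely read. Of 16 hairpin and host genes in the table, 6 passed the filter, and counts over hairpins in long-RNA libraries do not measure mature let-7. Mirlet7b had 245 counts and Mirlet7c-2 had 155 over all 17 cultures, and Mir98 and Mirlet7f-2 had 0. The smallest p in Het 12M over WT 12M were those of the host genes Wdr82 (-0.19 ± 0.14, edgeR adjusted p = 0.729) and Mir100hg (1.00 ± 0.88, adjusted p = 0.769), with 4 of the 6 fitted higher and a median of 0.11. In Het 3M over WT 3M, 3 were higher and 3 lower, a median of -0.15, led by the host genes Huwe1 (-0.31 ± 0.31) and Mir99ahg (-0.34 ± 0.58).

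Described let-7 targets outside the 6 genes were fitted higher in 21 and lower in 6 of 27 in Het 12M over WT 12M, a median of 0.16. The RAS gene Nras (0.53 ± 0.21, edgeR adjusted p = 0.514) and Irs2, an adaptor of insulin signalling (-1.26 ± 0.57, adjusted p = 0.589), had the smallest p. In Het 3M over WT 3M, 8 were higher and 19 lower, with a median of -0.16 against -0.018 over all genes. Tgfbr1, a TGF-beta receptor (-0.94 ± 0.40), and Myc (-0.71 ± 0.36) led there, both with an edgeR adjusted p of 1.00.

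Of 18 tested mRNAs described as bound by IGF2BP proteins, 9 were fitted higher and 9 lower in Het 12M over WT 12M, a median of -0.0045, led by Gli1 (-1.23 ± 0.56, edgeR adjusted p = 0.589) and Foxm1 (-0.98 ± 0.50, adjusted p = 0.627). In Het 3M over WT 3M, 3 were higher and 15 lower, a median of -0.19, led by Myc and Cd44 (-0.60 ± 0.41, edgeR adjusted p = 1.00). For the 12M over 3M comparisons the counts were 7 higher and 11 lower in WT and 9 each way in Het. Igf2, the fetal growth factor that gave the family its name, ran from 3.66 to 42.9 CPM in Het 12M and from 18.6 to 259 CPM in Het 3M. Its log2 fold change between these was -2.41 ± 0.94 (edgeR adjusted p = 0.946), and the groups overlapped. In WT it ran from 10.1 to 254 CPM at 12 months and from 68.0 to 598 CPM at 3 months, also overlapping, with a log2 fold change of -1.63 ± 1.00 (edgeR adjusted p = 0.651). Voom with quality weights called Igf2 in WT 12M over WT 3M (-2.14, voom adjusted p = 0.0392) and not in Het 12M over Het 3M; the difference between these was not called by either method.

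Among 11 tested genes linked to HMGA2, 5 were fitted higher and 6 lower in Het 12M over WT 12M, a median of -0.26, led by the mesenchymal transcription factor genes Snai1 (-0.80 ± 0.43, edgeR adjusted p = 0.642) and Twist1 (-0.34 ± 0.18, adjusted p = 0.644). Of 19 genes that write, erase or read the mRNA mark m6A, which IGF2BP proteins also bind, 16 were fitted higher and 3 lower, a median of 0.11, led by the eraser Fto (-0.32 ± 0.16, edgeR adjusted p = 0.627) and Rbm15b (-0.42 ± 0.22, adjusted p = 0.633). Over all 14897 genes tested, 55.6% were fitted higher in this comparison. In Het 3M over WT 3M, 8 of 11 HMGA2-linked genes (median 0.07) and 6 of 19 m6A genes (median -0.08) were fitted higher, against 47.5% of all genes. They were led by Igf1r (-0.61 ± 0.35) and Twist1 (0.38 ± 0.22), and by the m6A erasers Alkbh5 (-0.26 ± 0.17) and Fto (0.23 ± 0.20).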

How the data were processed

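The deposited table holds whole-number read counts per Entrez gene, made by the authors with Subread and featureCounts on mm10, per the submitters' processing notes; versions, annotation and the handling of multiply mapped reads are not given in the sources used here. All 68 columns were used and 0 were left out. Technical replicates of a culture differed by little more than counting noise (chi-square per degree of freedom 1.00 to 1.09, against at least 18.5 between cultures) and were summed. RefSeq (GRCm38.p6) gave symbols for 25275 of 27179 identifiers; the other 1904 held 0.573% of counts. All 6 members matched.

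One edgeR 4.0.16 fit (R 4.3.3; TMM, filterByExpr, 14897 genes, 4 groups, 17 cultures; biological coefficient of variation 0.512) gave 2-sided quasi-likelihood tests, with Benjamini-Hochberg adjusted p over all genes and a threshold of 0.05. The method was tested on simulated data. A log2 fold change is positive where the group named before "over" was higher. The labelled sex was left out as a term because of the mismatch in WT 12M and was tried as an alternative, as were DESeq2 1.42.0, limma 3.58.1 voom with quality weights and others. CPM are TMM-scaled; per-kilobase values use the GENCODE M21 exon union. Library precision covers counting error only.

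The members and lists were chosen with earlier results of these data known. The genes named were the 6 members, Ezh2, the 3 genes most like each member (predicted genes left out, log2 CPM with a prior count of 2) and, from each list, the 2 with the smallest p in the comparison described; Igf2, Mirlet7b, Mirlet7c-2, Mir98, Mirlet7f-2, Lin28a and Trim71 were named in addition, after their values were seen. Permutation tests used 100000 resamples.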

Additional observations from a re-analysis of the deposited data

Results flagged for a closer look

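In 15 combinations of a detected gene with a group of 4 or 6 cultures, 2 had 1 culture far from the rest. The critical values flag about 5% of such groups by chance only where values are normally distributed. That was not tested for these CPM, so 2 of 15 is not compared with 5%. Igf2bp1 in Het 12M had its highest value in S15, 2.75 CPM against 0.441 CPM for the next culture, a gap of 0.873 of the group's range (critical value 0.625). Igf2bp1 in WT 12M had its highest value in S7, 1.41 CPM against 0.380 CPM for the next, a gap of 0.880 of the range (critical value 0.829). These values rest on 42 and 32 reads. Het 12M S15 is also one of the cultures whose markers stood apart. WT 12M S7 had the highest sum of 10 chondrocyte markers, 22230 CPM, against 2212 to 17190 CPM in the other cultures. Its sum of 8 osteoblast markers was also the highest, 7703 CPM, with Het 3M S14 next at 6840 CPM. The part of cell types in these Igf2bp1 values was not tested.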

How the results depend on the processing

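Members were tested in Het 12M over WT 12M (5 members) and in both age comparisons (the 4 other than Igf2bp3). There the adjusted p stayed above 0.05 in every alternative run that kept the gene, except with voom. Voom with quality weights called Hmga2 and Igf2bp2 in WT 12M over WT 3M. Igf2bp1 was not kept, and so not tested, with technical replicate 1 alone. Nor was it kept in the runs limited to the 2 groups compared, for both comparisons of Het 12M. Counts of called genes, 0 in edgeR, ranged from 0 to 2 in Het 12M over WT 12M and from 0 to 1 in WT 12M over WT 3M on leaving out each culture, and were 2 in WT 12M over WT 3M without Het 12M S9 and S15 and WT 12M S6. DESeq2 called 106 (Het 12M over WT 12M), 53 (WT 12M over WT 3M), 1 (Het 12M over Het 3M) and 35 (interaction) genes. Voom with quality weights called 171, 1508, 1 and 939 in the same comparisons and 1292 in Het 3M over WT 3M.

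Signs reversed under some alternatives, and the cause was not tested. In Het 12M over WT 12M, Igf2bp1 was -0.027 with the labelled sex as a term, -1.06 without the 3 cultures, -1.05 with voom and -1.02 to 1.12 on leaving out 1 culture. Hmga2 there was 0.88 without the 3 cultures, 0.92 with voom and -0.48 to 0.72 on leaving out 1 culture. In WT 12M over WT 3M, Hmga1 was -0.41 with voom. In Het 12M over Het 3M, Igf2bp1 was -0.33 without the 3 cultures, -0.013 with voom and -0.55 to 1.31 on leaving out 1 culture. There Igf2bp2 was 0.072 without the 3 cultures and 0.049 with voom, and Hmga1 was -0.034 without the 3 cultures. Among values without a test, Igf2bp2 in Het 3M over WT 3M (-0.016) was above 0 under 3 of 27 alternatives (up to 0.15), and in the interaction Igf2bp1 was below 0 under 2 of 25 and Hmga1 under 12 of 27. Igf2bp3 in Het 3M over WT 3M lay between -2.03 and -1.40 under all 27 alternatives. Summing Hmga1b into Hmga1 was chosen after seeing the data.

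No paired analysis was possible because the shared numbers in the labels are those of technical replicates, and each culture has an S number of its own. The permutation test for members below the filter and its log2(CPM + 1) form were not run, since Lin28b was 0 in every culture. Low counts limit Igf2bp1 and Igf2bp3 most.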
